A study of Mus musculus with 6 samples.

Results

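Immediate-early genes are described here through a list of 10 named members, *Fos*, *Fosb*, *Jun*, *Junb*, *Jund*, *Egr1*, *Ier2*, *Atf3*, *Nr4a1* and *Dusp1*, out of 19449 genes in the single-cell table. The rule lists the members by gene name and sets no threshold on their values, and all 10 were also counted in bulk RNA-Seq of microglia. *Dusp1* encodes a phosphatase, so the list is not made of transcription factors alone. The single-cell libraries held CD45+ leukocytes sorted from spinal cords of wild-type C57BL/6 recipients with experimental autoimmune encephalomyelitis (EAE), a mouse model of multiple sclerosis. Disease was induced by transfer of CD4+ T cells that recognize myelin oligodendrocyte glycoprotein (MOG) and had been polarized with IL-23. There was 1 library each of young adult (8 to 12 weeks) and middle-aged (40 to 44 weeks) recipients on day 6 and on day 10 posttransfer, and each pooled 4 cords. The bulk libraries, 1 per age, held microglia of untreated naive mice, labeled as young or middle-aged. Sorted cells of all libraries had passed through warm collagenase and DNase digestion, and mice of both sexes were used in the study. A pool of cords is 1 sample, and donor and host T cells were not separated by the labels.

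Immediate-early genes are transcribed within minutes of a stimulus from factors already present in the cell, such as SRF with its ELK partners and CREB, which are switched on by MAP kinases and calcium. FOS and JUN proteins pair to form the AP-1 factor, EGR1 and NR4A1 bind DNA on their own, and DUSP1 dephosphorylates MAP kinases and so limits the signal. In T cells *Egr1* and *Nr4a1* are classical targets of antigen receptor signaling, and in microglia and neutrophils *Fos*, *Jun* and *Dusp1* respond to inflammatory cues and also to tissue dissociation. The part of dissociation and sorting in the levels was not tested.

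The 4 single-cell libraries held 8315 to 10026 cells and 57337626 to 69859331 UMIs (unique molecular identifiers, by which a captured transcript is counted a single time). Of 38057 cells, 308 carried 1 of 154 barcodes found in more than 1 library. Levels are UMIs of a member summed over the cells of a deposited cluster in a library, in CPM (counts per 1e+06 UMIs of that cluster and library). The clusters carry numbers but no names, and 11 of 16 had 50 or more cells in every library. By fixed markers clusters 10 and 8 were microglia-like, 2 T cell-like, 1 and 5 monocyte/macrophage-like, 3 neutrophil-like, 4 B cell-like, 7 dendritic cell-like and 9 NK cell-like. Cluster 0 was left unnamed, since none of its 10 leading genes, headed by *Cxcl2*, *Il1f9* and *Csf1*, was a fixed marker, although its neutrophil markers summed to 37655 to 50897 CPM and no other marker list there to more than 6404 CPM. Cluster 11 was also left unnamed. Clusters had been made from the same cells, so levels between clusters are given without a test.

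Members together made up the largest share of UMIs in neutrophil-like cluster 3 (1.48% ± 0.0506, SD, n = 4 libraries that differ in age and day), cluster 0 (1.44% ± 0.172) and microglia-like cluster 10 (1.09% ± 0.453). The share was 0.744% ± 0.0923 in cluster 5, 0.654% ± 0.0902 in cluster 1, 0.497% ± 0.0736 in cluster 7, 0.489% ± 0.149 in T cell-like cluster 2, 0.447% ± 0.0532 in cluster 11, 0.369% ± 0.0421 in cluster 9 and 0.303% ± 0.0180 in B cell-like cluster 4. The lowest was microglia-like cluster 8 with 0.1997% ± 0.0532. By mean ± SD each cluster overlapped its neighbor in this order down to cluster 9, and clusters 9, 4 and 8 did not overlap.

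Each member had its own distribution. *Jun* was highest in cluster 10 (2583 ± 1548 CPM), against 1053 ± 141 CPM in cluster 0 and 152 ± 28.2 CPM in cluster 8. *Atf3*, a stress-responsive partner of JUN proteins, was also highest in cluster 10 (748 ± 341 CPM), followed by cluster 0 (599 ± 64.9 CPM), and lowest in NK cell-like cluster 9 (20.3 ± 9.87 CPM). *Dusp1* was led by cluster 0 (3513 ± 653 CPM) and cluster 3 (3084 ± 407 CPM), which overlapped, and was lowest in B cell-like cluster 4 (115 ± 27.2 CPM). *Egr1*, a zinc finger activator, stood at 1827 ± 424, 1730 ± 903 and 1295 ± 665 CPM in clusters 0, 3 and 10, and in the other clusters its mean was at most 262 CPM. *Fosb* was highest in T cell-like cluster 2 (235 ± 132 CPM) and cluster 10 (226 ± 101 CPM), levels that overlapped. *Jund* had the smallest fold of the highest over the lowest cluster (4.96), from 226 ± 24.4 CPM in cluster 8 to 1123 ± 286 CPM in cluster 3. For 7 of the 10 members the lowest mean was that of cluster 8, *Egr1* and *Dusp1* were lowest in cluster 4, and *Atf3* was lowest in cluster 9.

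**Figure D1:**
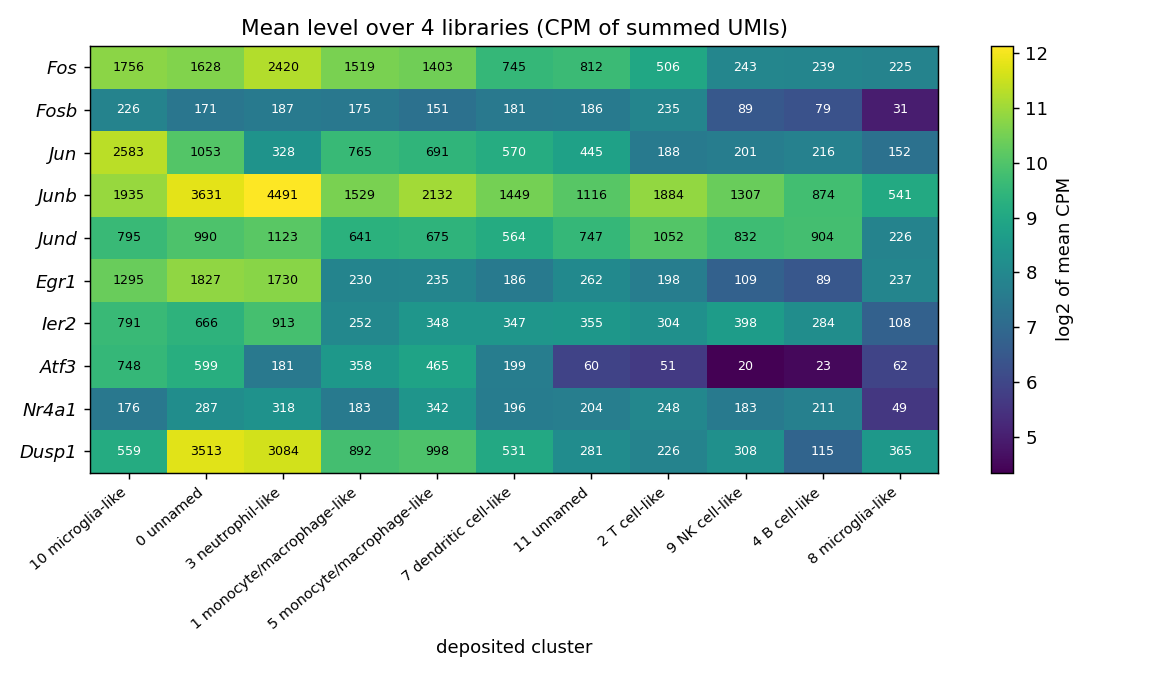
Mean level of each member (rows) in the 11 deposited clusters with 50 or more cells in every library (columns), in CPM of summed UMIs over 4 libraries, with color on a log2 scale and the mean printed in each cell. *Jun* and *Atf3* are highest in microglia-like cluster 10, *Dusp1* in cluster 0, and most members are lowest in microglia-like cluster 8.

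Both microglia-like clusters expressed fixed microglial markers, and 9 of the 10 members were higher in cluster 10 than in cluster 8 with an interval above 0 in all 4 libraries. *Dusp1* was the exception, with an interval that spanned 0 in middle-aged mice on day 6 (log2 ratio 0.12 [-0.02 to 0.25]). These intervals cover counting error only and are no test, and the share of all genes with such an interval was not computed. *Sparc*, *Cx3cr1*, *Olfml3* and *Tmem119* were among the leading genes of cluster 10, and *Cd81*, *C1qa* and *Olfml3* among those of cluster 8. *Jun* was 11.7 to 27.9 times as high in cluster 10 as in cluster 8 over the 4 libraries, *Atf3* 7.68 to 16.6 times, *Fos* 4.29 to 11.1 times, *Fosb* 3.67 to 9.92 times, and *Egr1* 3.13 to 8.39 times. *Ier2*, a short-lived nuclear regulator, was 4.92 to 8.94 times as high. The smallest folds were those of *Junb* (2.61 to 4.89), *Jund* (2.61 to 4.71), *Nr4a1* (2.37 to 4.59) and *Dusp1* (1.08 to 2.50). Among all genes that reached 100 UMIs the median fold was 1.24 to 1.51 in the same libraries. In middle-aged mice on day 6 and in young mice on day 10 the fold of *Dusp1* (1.08 and 1.45) was below that median (1.24 and 1.51). Cluster 8 also held transcripts of other lineages. Its microglial markers summed to 6239, 4035, 2692 and 3264 CPM in young and middle-aged mice on day 6 and then on day 10, its neutrophil markers to 6937, 10189, 8935 and 3595 CPM, and its monocyte/macrophage markers to 1209, 1955, 16279 and 18704 CPM. At least 1 of these other sums exceeded the microglial one in every library, and their part in the contrast was not tested. The clusters also differed in depth, with median UMIs per cell of 6931 to 10000 in cluster 10 and 2059 to 3070 in cluster 8.

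In single cells the contrast was of cells with and without these transcripts. Of cluster 10 cells 0% to 1.62% had no UMI of any member, and of cluster 8 cells 35.9% to 44.98%. After each cell had been thinned to 2000 UMIs, which left out cells with fewer, 51.0% to 73.5% of cluster 10 cells and 6.12% to 14.1% of cluster 8 cells held 5 or more members. In cluster 8 a few cells carried much of the signal. This cluster had 249 and 364 cells in young and middle-aged mice on day 6 and 668 and 776 on day 10. A fixed 10 cells is thus the largest part of the young library of day 6. The 10 cells richest in *Fos* held 89.3% of its UMIs in young mice on day 6 and 48.9% to 61.6% in the other libraries. For *Dusp1* the values were 88.5% and 45.5% to 55.2%, and for *Junb* 63.5% and 32.8% to 35.6%. *Fos* was found in 9.09% of the 132 thinned cells of that library (exact binomial 95% interval 4.79 to 15.3) and in 10.0% of its 249 cells before thinning. All cluster types expressed these genes, so none served as a level of free RNA.

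Cluster 10 stood apart between libraries. The value of young mice on day 6 was the highest of the 4 libraries for 8 of the 10 members, the exceptions being *Fosb* and *Nr4a1*. Members together took 1.74% of its UMIs, against 0.981% in middle-aged mice on day 6 and 0.696% and 0.929% in young and middle-aged mice on day 10. There were 432, 216, 362 and 334 cells of cluster 10 in these libraries, in the same order, which is kept below.

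*Jun* (GRCm38 chromosome 4, 95049034 to 95052222, reverse strand) stood at 4850, 2293, 1523 and 1668 CPM. Young mice on day 6 were the highest, and middle-aged mice on day 6 lay above both libraries of day 10. *Fos* (chromosome 12, 85473890 to 85477273, forward strand) stood at 2554, 1457, 1023 and 1992 CPM, and the ages changed places between the days. *Fosb* (chromosome 7, 19302696 to 19310051, reverse strand) followed the same order of ages with 294, 203, 92.2 and 314 CPM. *Junb*, an AP-1 subunit on chromosome 8, had 2733, 1873, 1542 and 1591 CPM, and *Jund* had 1137, 677, 502 and 864 CPM. Both were highest in young mice on day 6 and lowest in young mice on day 10.

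*Egr1* had 2242, 1270, 793 and 876 CPM, with both libraries of day 6 above both of day 10. *Ier2* shared that order with 1359, 739, 512 and 554 CPM. *Atf3* (chromosome 1, 191170296 to 191218039, reverse strand) had 1226, 614, 428 and 722 CPM. In *Atf3* the days overlapped. *Dusp1* (chromosome 17, 26505590 to 26562128, reverse strand) had 843, 564, 299 and 529 CPM. *Nr4a1* (chromosome 15, 101254269 to 101274795, forward strand), an orphan nuclear receptor, had 164, 123, 242 and 178 CPM and was the only member highest in young mice on day 10.

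**Figure D2:**
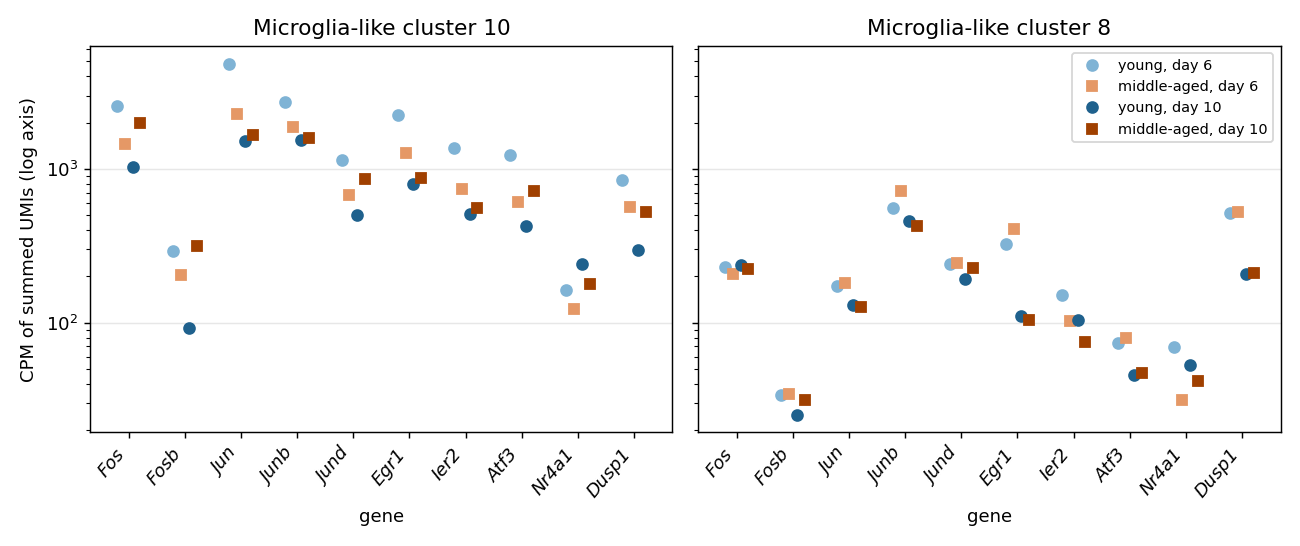
CPM of summed UMIs (log axis) of each member in microglia-like cluster 10 (left) and cluster 8 (right), 1 point per library, with circles for young and squares for middle-aged mice and light and dark shades for day 6 and day 10. In cluster 10 young mice of day 6 lie highest for 8 members, and in cluster 8 *Egr1* and *Dusp1* of both ages lie lower on day 10.

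Age was compared by dividing CPM of middle-aged mice by that of young mice, on the log2 scale, and brackets give the exact 95% interval of that ratio (conditional binomial), which covers counting error only. A member was counted as higher or lower beyond 0.25 on this scale, the fold threshold used in the study, among genes with 100 or more UMIs in the pair of libraries. With 1 library per age and day such a count has no replicate check. On day 6 all 10 members were lower in middle-aged cluster 10, beside 28.1% of all 6668 genes. Their median log2 ratio was -0.78 and that of all genes -0.04. *Jun* (-1.08 [-1.13 to -1.04]) and *Atf3* (-0.999 [-1.09 to -0.91]) differed most, and *Nr4a1* (-0.42 [-0.63 to -0.21]) least. On day 10 5 members were higher in middle-aged mice, beside 13.1% of all genes, with a median of 0.45. These were *Fosb* (1.77 [1.59 to 1.95]), *Fos* (0.96 [0.90 to 1.02]), *Dusp1* (0.82 [0.71 to 0.94]), *Jund* (0.78 [0.70 to 0.87]) and *Atf3* (0.75 [0.66 to 0.85]). *Nr4a1* was lower (-0.44 [-0.60 to -0.29]), and *Jun*, *Junb*, *Egr1* and *Ier2* lay between 0.04 and 0.14.

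Other genes moved with these ratios in cluster 10. Summed heat shock genes stood at 15821, 7205, 4681 and 4627 CPM, and 11 of 11 were lower in middle-aged mice on day 6, with a median log2 ratio of -1.79. Microglial markers summed to 10534, 6517, 6844 and 6738 CPM, and neutrophil markers to 4440, 1236, 5911 and 3604 CPM. Both sums were thus higher in the young library of day 6 than in the middle-aged one. Their part in the members' ratios was not tested. Of 29 other immediate-early and early-response genes 17 were lower and 2 higher on day 6 (median -0.48), with *Klf4* (-1.26), *Cebpd* (-1.13) and *Myc* (-1.05) among the lower and *Bhlhe40* (1.42) among the higher. Of 9 AP-1 relatives 3 were lower and 1 higher. Of 13 kinases and factors upstream of immediate-early genes 5 were lower and none higher, with *Mapk8* at -0.40 and an interval that reached 0.14. On day 10 these lists had 6 of 29, 2 of 9 and 0 of 12 lower and 7, 1 and 2 higher.

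**Figure D3:**
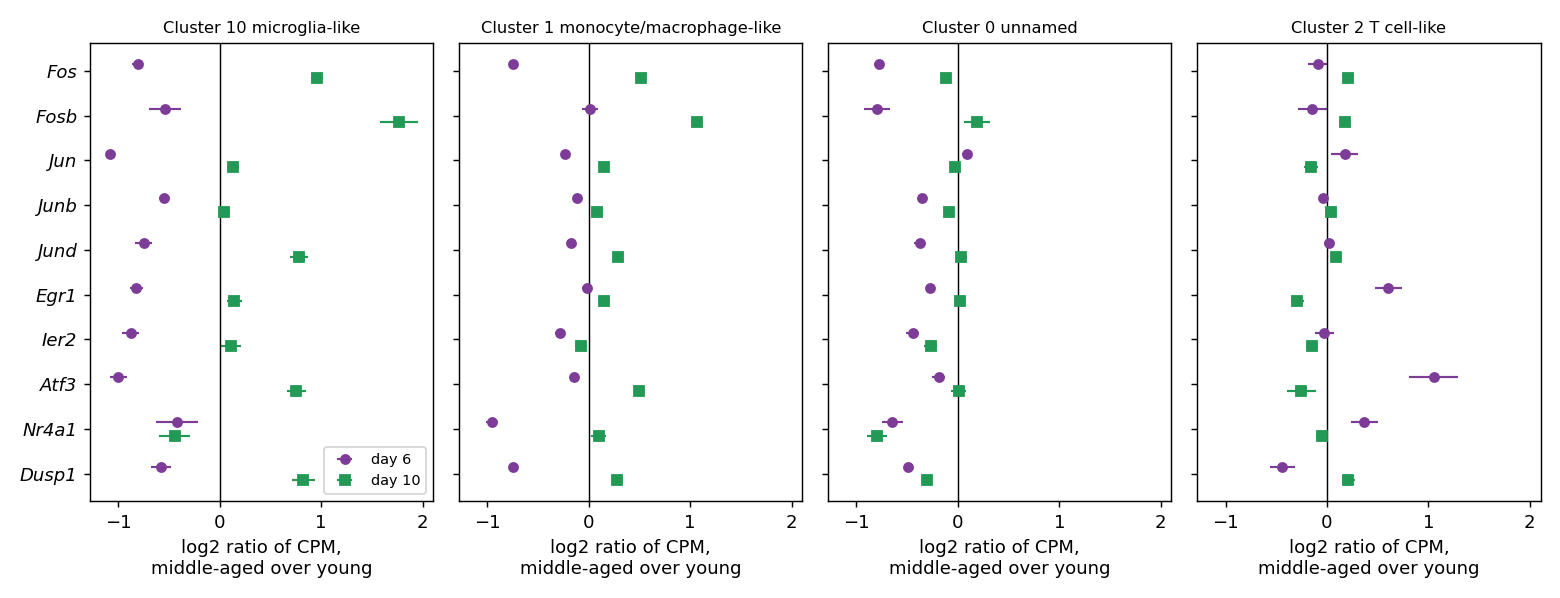
Log2 ratio of CPM, middle-aged over young, of each member on day 6 (purple circles) and day 10 (green squares) in microglia-like cluster 10, monocyte/macrophage-like cluster 1, unnamed cluster 0 and T cell-like cluster 2, with 95% intervals that cover counting error only. In cluster 10 all day 6 ratios lie below 0 and 9 of 10 day 10 ratios above, and in cluster 2 most lie near 0.

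In the other main clusters (8, 1, 0 and 2) the day 6 medians of the members were closer to 0, although some single ratios were larger than in cluster 10. In cluster 8 2 of the 8 members with enough UMIs were higher on day 6, beside 22.6% of all genes, and 1 was lower, beside 23.7%. The members' median of 0.03 became 1.13 without the 10 cells richest in each gene, a larger part of the 249 young cells than of the 364 middle-aged ones. On day 10 2 of 10 were lower, beside 17.8%, and 1 was higher, beside 13.8%. In monocyte/macrophage-like cluster 1 4 members were lower on day 6, beside 33.3% of all genes. *Nr4a1* (-0.95 [-1.01 to -0.90]), *Dusp1* (-0.75 [-0.78 to -0.72]) and *Fos* (-0.74 [-0.77 to -0.72]) were the largest of them. On day 10 5 members were higher there, beside 12.3%, led by *Fosb* (1.07 [1.01 to 1.12]). In cluster 0 8 members were lower on day 6, beside 27.1% of all genes, and 3 on day 10, beside 13.6%. *Nr4a1* was lower in cluster 0 on both days, with -0.65 [-0.75 to -0.54] and -0.80 [-0.89 to -0.70]. In T cell-like cluster 2 1 member was lower on day 6 (*Dusp1*, -0.44 [-0.56 to -0.31]), beside 25.4% of all genes, and 3 were higher, beside 14.6%. On day 10 2 were lower, beside 6.03%. Across all 11 clusters the median of the members was negative in 10 on day 6 and in 5 on day 10. The median of all genes was itself negative in every cluster on day 6 (-0.18 to -0.02), and on day 10 it lay between -0.04 and 0.08. On day 6 the members' median was below -0.25 in 5 clusters and above 0.25 in 0. On day 10 it was below -0.25 in 0 and above 0.25 in 3. In dendritic cell-like cluster 7 9 members were lower on day 6, beside 32.6% of all genes, with a median of -0.66. In cluster 5 5 were lower and 2 higher, beside 26.8% and 15.6%, with a median of -0.33.

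The effect of age over both days was tested by edgeR's quasi-likelihood test on the 4 summed libraries of a cluster, with day and age as terms, and genes were called at a Benjamini-Hochberg adjusted p below 0.05. The test has 1 residual degree of freedom among libraries and borrows its spread from all genes. With 1 library per age and day, that residual is the departure from additive effects of age and day. It does not measure a spread between replicate libraries, and an age ratio that differs between the days adds to it. No member was called in any of the main clusters. Calls reached 0.142% of all genes in cluster 10, 0.0956% in cluster 8, 0.0616% in cluster 2, 0.208% in cluster 0 and 0.0982% in cluster 1. Before adjustment 0, 2, 0, 4 and 1 members had p below 0.05 by edgeR in these clusters. The shares of all genes below it were 3.37%, 3.39%, 2.46%, 7.67% and 3.31%. DESeq2 called 0 members in each. In cluster 10 the age effect of *Fos* was 0.11 ± 0.41 (SE, log2) and that of *Jun* -0.45 ± 0.38. The lowest adjusted p was that of *Nr4a1* in cluster 0 (0.0520 by edgeR, log2 fold change -0.67 ± 0.13, lower in middle-aged mice on both days), and its range over the alternatives was 0.00111 to 0.99996. It was called with no filter on low counts and with RLE size factors (0.0334).

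In T cells most members were higher on day 10 than on day 6 in both ages. With 1 library per age and day, day cannot be told apart from the pool. In T cell-like cluster 2 the members together made up 0.358% (young) and 0.361% (middle-aged) of UMIs on day 6, and 0.609% and 0.628% on day 10. All 10 members were higher on day 10 in young mice, beside 13.9% of all genes, and 8 in middle-aged mice, beside 19.9%. The medians of their log2 ratios were 0.99 and 0.71, against -0.18 and -0.05 for all genes. There were 1307 and 1137 T cells in the libraries of day 6, young first, and 1923 and 2463 in those of day 10.

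*Fos* stood at 276, 260, 689 and 797 CPM in T cells, in the order young and middle-aged on day 6 and then on day 10. *Fosb* stood at 128, 116, 327 and 370 CPM, and *Nr4a1* at 121, 157, 364 and 351 CPM. *Egr1* stood at 105, 160, 291 and 238 CPM. For these members both libraries of day 10 lay above both of day 6. The same held for *Jun* with 126, 142, 254 and 228 CPM, *Junb* with 1455, 1412, 2306 and 2363 CPM, and *Dusp1* with 175, 129, 277 and 321 CPM. *Jund* (884, 897, 1177 and 1249 CPM) and *Ier2* (283, 278, 345 and 311 CPM) kept that order with smaller steps. *Atf3* (30.2, 62.7, 59.5 and 49.8 CPM) did not.

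**Figure D4:**
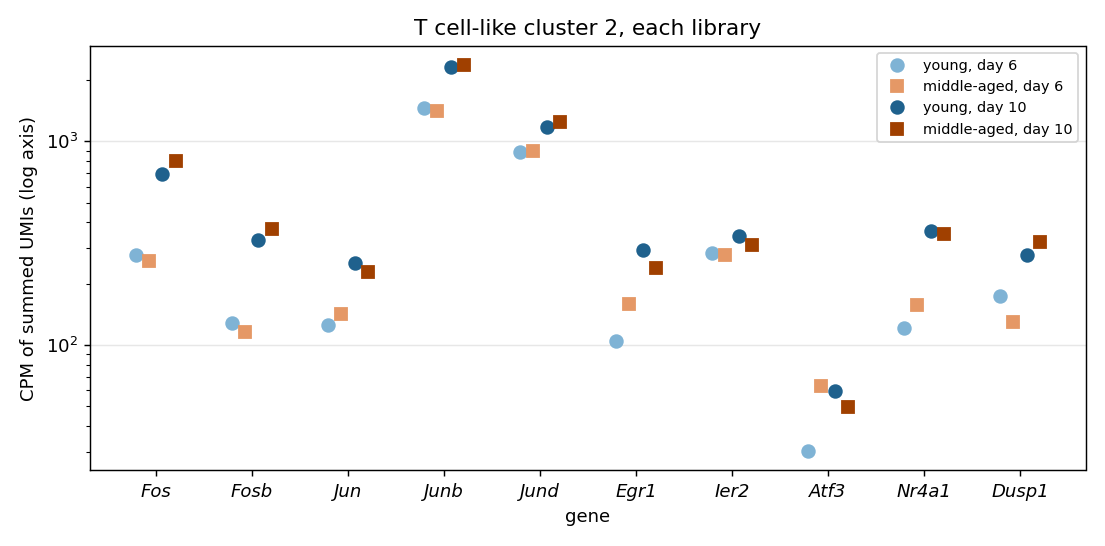
CPM of summed UMIs (log axis) of each member in T cell-like cluster 2, 1 point per library, with circles for young and squares for middle-aged mice and light and dark shades for day 6 and day 10. For 9 of 10 members both points of day 10 lie above both of day 6, and *Atf3* is the exception.

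In the same edgeR fit, 7 members passed the test for day in T cells, beside 7.22% of 11362 genes. DESeq2 also called 7, beside 360 of all these genes. *Fosb* rose by 1.62 ± 0.19 (log2 fold change ± SE, higher on day 10 in both ages, edgeR adjusted p = 1.71e-05, 3.84e-20 to 0.00157 over the alternatives). *Fos* rose by 1.58 ± 0.20 (edgeR adjusted p = 2.73e-05, 3.05e-17 to 0.00158) and *Nr4a1* by 1.48 ± 0.21 (8.80e-05, 4.24e-21 to 0.00404), each also in both ages. *Egr1* rose by 1.13 ± 0.23 (edgeR adjusted p = 0.00329) and *Jun* by 0.95 ± 0.20 (0.00385). Without the young library of day 10 these last were no longer called, with adjusted p of 0.0959 and 0.0526. *Dusp1* rose by 1.10 ± 0.20 (edgeR adjusted p = 0.00136, 8.80e-13 to 0.0319) and *Junb* by 0.81 ± 0.19 (0.0114, 9.94e-05 to 0.0239). *Jund* did not pass, at 0.55 ± 0.19 (edgeR adjusted p = 0.103), nor did *Atf3* (0.41 ± 0.25, 0.440) or *Ier2* (0.33 ± 0.19, 0.424). Fits with a library left out also dropped the age term. Without the middle-aged library of day 6 the log2 fold changes of *Jund* and *Atf3* were 0.60 and 0.996. Without the young library of day 6 that of *Jund* was 0.50.

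More T cells held the transcripts on day 10. With each cell thinned to 2000 UMIs, *Fos* was found in 29.8% and 28.0% of cells of young and middle-aged mice on day 6 and in 44.2% and 49.6% on day 10, and *Nr4a1* in 17.3%, 18.0%, 37.4% and 35.1%. Unthinned shares of *Fos* were 46.2%, 45.2%, 63.9% and 66.9% at median depths of 4715, 5034, 6225 and 5345 UMIs. Cells with 5 or more members made up 19.5% and 19.3% on day 6 and 41.1% and 42.8% on day 10. Among T cells of a library the pair with the highest mean Spearman correlation was *Fos* with *Fosb* (mean over 4 libraries 0.33, range 0.22 to 0.43). This is a description over cells of a library, thinned to the same depth.

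Related genes in T cells differed in direction. Of 29 other immediate-early and early-response genes 16 were higher and 8 lower on day 10 in young mice, led by *Egr2* (2.48), *Egr3* (2.04), *Nr4a3* (1.60) and *Dusp2* (1.48), and in middle-aged mice 14 of 30 were higher and 8 lower. Of 8 AP-1 relatives 3 were higher and 2 lower in young mice and 2 higher and 4 lower in middle-aged mice. Of 17 upstream kinases and factors 3 and 8 were higher and 6 and 3 lower, in young and middle-aged mice. Heat shock genes summed to 6580, 6076, 5121 and 4705 CPM and so went the other way. The share of ribosomal protein UMIs was 29.7% and 30.4% on day 6 and 36.6% and 34.9% on day 10, and neutrophil markers summed to 90.6, 233, 487 and 123 CPM. The part of depth, ribosomal share and neutrophil RNA in the members' rise was not tested.

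The sequence before the start is shown for 4 of the 7 members called in T cells, chosen after it was seen that they hold the motif described here. RefSeq promoter windows (GRCm38.p6, 250 bases before to 50 after the start) were at hand for 8 of the 10 members, without *Egr1* and *Ier2*. The 250 bases before the start are printed 5′ to 3′, and capitals mark TGACG or its reverse complement CGTCA, the core of the cAMP response element to which CREB binds.
*Fos*, chr12:85473640-85473889, forward strand: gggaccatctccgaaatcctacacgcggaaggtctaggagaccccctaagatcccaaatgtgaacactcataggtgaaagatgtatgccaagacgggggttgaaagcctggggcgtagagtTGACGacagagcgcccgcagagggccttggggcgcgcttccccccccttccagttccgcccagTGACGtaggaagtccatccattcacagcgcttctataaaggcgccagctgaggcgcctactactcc
*Fosb*, chr7:19310046-19310295, reverse strand: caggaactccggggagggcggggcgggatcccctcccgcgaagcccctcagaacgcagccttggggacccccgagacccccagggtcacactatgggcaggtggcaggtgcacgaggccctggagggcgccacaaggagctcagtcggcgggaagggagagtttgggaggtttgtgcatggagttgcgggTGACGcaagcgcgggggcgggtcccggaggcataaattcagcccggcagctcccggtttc
*Nr4a1*, chr15:101266596-101266845, forward strand: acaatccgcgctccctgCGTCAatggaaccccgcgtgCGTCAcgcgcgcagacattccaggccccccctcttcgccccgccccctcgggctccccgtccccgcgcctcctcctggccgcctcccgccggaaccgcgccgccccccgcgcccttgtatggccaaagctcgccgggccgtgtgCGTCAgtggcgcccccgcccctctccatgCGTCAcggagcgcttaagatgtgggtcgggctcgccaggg
*Dusp1*, chr17:26508473-26508722, reverse strand: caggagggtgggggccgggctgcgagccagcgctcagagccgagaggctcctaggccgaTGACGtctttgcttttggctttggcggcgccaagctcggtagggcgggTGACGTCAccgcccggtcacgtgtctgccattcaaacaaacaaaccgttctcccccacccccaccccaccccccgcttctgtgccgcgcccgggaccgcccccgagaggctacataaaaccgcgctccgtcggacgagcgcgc
This 5-base core was found on either strand in 6 of the 8 windows (*Fos*, *Fosb*, *Junb*, *Atf3*, *Nr4a1* and *Dusp1*), and in 20.8% of all 32851 windows of that length. *Nr4a1* held 4 copies, at -233, -213, -69 and -40 from the start. *Fos* held copies at -129 and -66, and *Fosb* at -60. In *Dusp1* copies at -143 and -140 overlapped as the palindrome TGACGTCA, the complete element, which 1.79% of all windows held. The AP-1 site (TGACTCA or TGAGTCA) was in 0 of 8 windows and in 5.202% of all windows. The CArG box (CC, 6 letters of A or T, and GG) was in 0 of 8 and 1.63%. The TATA letters (TATAAA or TTTATA) were in 2 of 8 (*Fos* and *Junb*) and 13.6%. Sites farther than 250 bases before the start were not searched. These matches describe the letters only. Of the other members called in T cells, *Jun* had no core in its window, *Junb* had one at -106, and *Atf3*, which was not called, had one at -7.

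In the microglia-like clusters edgeR called fewer members for day than in T cells, and the difference between clusters was not tested. In cluster 8 *Egr1* stood at 327 and 406 CPM on day 6 and at 110 and 104 CPM on day 10, young first. *Dusp1* stood at 521 CPM in both ages on day 6 and at 206 and 212 CPM on day 10. Neither gene overlapped between the days. Both passed the test, *Egr1* with a fall by 1.49 ± 0.19 (log2, lower on day 10 in both ages, edgeR adjusted p = 1.84e-05, 3.64e-24 to 0.000674 over the alternatives) and *Dusp1* with a fall by 1.04 ± 0.18 (edgeR adjusted p = 0.000338, 2.52e-10 to 0.0223), and these 2 were the members called in cluster 8, beside 13.4% of all genes. By ratio 8 of the 9 members with enough UMIs were lower on day 10 in young mice, beside 51.4% of all genes, and 6 of 10 in middle-aged mice, beside 52.6%, a share near that of all genes. With TMM scaling *Junb*, *Jund* and *Nr4a1* were not lower in young mice. *Fos* overlapped between the days, with 230, 208, 239 and 223 CPM in the order of libraries used above. The monocyte/macrophage sum of cluster 8 was higher on day 10 in both ages and the microglial sum lower, as given above. Its heat shock genes summed to 6986, 5884, 3845 and 4019 CPM. The part of these lists in the members' differences was not tested.

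In cluster 10 9 members were lower on day 10 in young mice, beside 44.5% of all genes, with a median of -1.45 and *Fosb* (-1.68 [-1.86 to -1.49]) and *Jun* (-1.67 [-1.72 to -1.63]) at the low end. *Nr4a1* was higher (0.56 [0.41 to 0.72]), beside 19.5% of all genes. In middle-aged mice 4 members were higher, beside 17.5% of all genes, with a median of 0.07, and these were *Fosb* (0.63), *Nr4a1* (0.54), *Fos* (0.45) and *Jund* (0.35). *Egr1* (-0.54), *Jun* (-0.46) and *Ier2* (-0.42) were lower there, 3 of 10 members beside 37.4% of all genes. Over both ages edgeR called no member for day, beside 6.64% of all genes. Before adjustment 4 members had p below 0.05 by edgeR, beside 20.9% of all genes, and 0 were called by DESeq2. Without the young library of day 6 the log2 fold changes of *Egr1* and *Nr4a1* were -0.49 and 0.89. Without the middle-aged library of day 6 those of *Jun*, *Junb*, *Egr1*, *Ier2* and *Atf3* were -1.43, -0.62, -1.25, -1.17 and -0.91. These fits left 1 library in a group, and calls from them are left out here.

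In cluster 0 7 members passed the test for day, beside 54.4% of all genes, and DESeq2 called 6, beside 2929 of 9593 genes. *Egr1* fell by 1.29 ± 0.13 (edgeR adjusted p = 1.58e-06), *Atf3* by 0.98 ± 0.13 (1.65e-05) and *Dusp1* by 0.95 ± 0.13 (2.44e-05), each by TMM scaling and called in each alternative. In this cluster the median log2 ratio of all genes between the days was 0.58 in young and 0.68 in middle-aged mice before TMM scaling, and directions are given after it. In CPM, *Egr1* was 2367, 1962, 1477 and 1501 and *Dusp1* was 4396, 3126, 3604 and 2928, so that the middle-aged value of *Dusp1* on day 6 lay below the young value on day 10. *Fos* was called as higher, and *Jun*, *Junb* and *Jund* as lower after TMM scaling although in CPM each was higher on day 10 in both ages. These 4 lost the call without either library of day 10, and *Fos* also without the middle-aged library of day 6 (adjusted p = 0.792 by edgeR). In cluster 0 monocyte/macrophage markers summed to 3646, 2927, 6242 and 6404 CPM and microglial markers to 81.7, 59.6, 232 and 222 CPM, and ribosomal protein genes took 2.75%, 2.32%, 7.0005% and 6.95% of UMIs. Their part in these calls was not tested. In monocyte/macrophage-like cluster 1 4 members passed, beside 29.9% of all genes, and DESeq2 called 4, beside 1923 of 12222 genes. *Fosb* was higher on day 10 by 0.85 ± 0.24 (edgeR adjusted p = 0.0155, 0.0180 to 0.335 over the alternatives), and *Junb*, *Ier2* and *Nr4a1* were lower by 0.79 to 0.92. Without the middle-aged library of day 10 none of these 4 was called, without the young one *Fosb* alone was, and without the young library of day 6 *Fosb* had an adjusted p of 0.0526. In cluster 1 microglial markers summed to 228, 234, 567 and 570 CPM, border macrophage markers to 187, 159, 277 and 414 CPM and heat shock genes to 7572, 5871, 4564 and 4847 CPM, and their part was not tested.

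Most pairs of members correlated positively across the cells of a library. Over 45 pairs of members the median Spearman correlation across cells of a library was 0.25 in cluster 10, 0.27 in cluster 8, 0.18 in cluster 1, 0.14 in cluster 2 and 0.13 in cluster 0, values that share each cell's depth. In cluster 0 3 pairs were negative in every library, *Junb* with *Atf3* (-0.16 to -0.067), *Ier2* with *Atf3* (-0.10 to -0.036) and *Jun* with *Nr4a1* (-0.044 to -0.0039). *Junb* with *Egr1* was the closest pair in cluster 10 (mean over 4 libraries 0.48, range 0.38 to 0.62) and in cluster 0 (0.41, 0.39 to 0.43), and *Fos* with *Dusp1* in cluster 1 (0.53, 0.41 to 0.68) and cluster 8 (0.55, 0.49 to 0.65). Over 52 sums of a cluster in a library, *Junb* (Pearson r = 0.86) and *Fos* (0.85) lay closest to the mean of the other 9 members, and *Jund* (0.44) and *Nr4a1* (0.50) farthest. Of 5310 other genes *Klf6* (0.89), *Ccnl1* (0.86), *Crk* (0.85), *Chd7* (0.85) and *Rbm47* (0.85) were most like the mean of the members. With each cluster's mean taken out, *Bcl6* (0.77), *Btg2* (0.73), *Ckb* (0.67), *Cebpd* (0.66) and *Sgms1* (0.61) took their place. These points share libraries and clusters, and the correlations are descriptions.

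In bulk microglia of naive mice all 10 members were higher in the middle-aged library by over 0.25 on the log2 scale, beside 15.2% of 14821 genes with 100 or more counts. The libraries held 79373420 and 76293436 counts, young first, and members took 0.713% and 1.01% of them. Fewer cells of a type and less RNA per cell cannot be told apart in bulk counts, and with 1 library per age there is no test. *Atf3* had 38471 and 67928 counts (485 and 890 CPM), a log2 ratio of 0.88 [0.86 to 0.90], and *Dusp1* had 44999 and 71471 (567 and 937 CPM), a ratio of 0.72 [0.71 to 0.74]. *Fos* had 93231 and 130160 (1175 and 1706 CPM, 0.54 [0.53 to 0.55]) and *Egr1* 72309 and 97609 (911 and 1279 CPM, 0.49 [0.48 to 0.50]). *Jun* had 147426 and 190018 (1857 and 2491 CPM, 0.42 [0.41 to 0.43]). The smallest ratios were those of *Jund* (0.29 [0.26 to 0.33]), *Nr4a1* (0.34 [0.31 to 0.37]) and *Junb* (0.37 [0.36 to 0.38]), with *Ier2* at 0.41 and *Fosb* at 0.45.

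**Figure D5:**
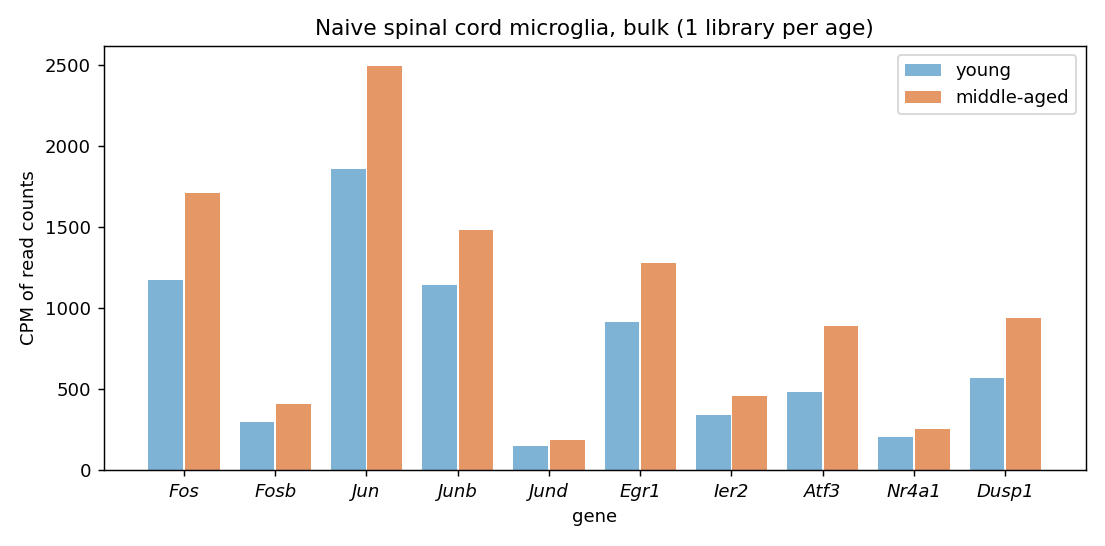
CPM of read counts of each member in bulk microglia of naive young (blue bars) and middle-aged (orange bars) mice, 1 library per age, on an axis from 0. The middle-aged bar is the higher one for all 10 members, from 1.23 times for *Jund* to 1.84 times for *Atf3*.

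Per kilobase of exon, the order of levels in the young bulk library was led by *Jun* (582 CPM per kb), *Fos* (499) and *Junb* (497), and *Fosb* was lowest (47.5). In the middle-aged library *Jun* (781) and *Fos* (725) again led, and *Fosb* (64.9) was lowest. Counting was unstranded, so reads of overlapping antisense genes would be included. Of 30 other immediate-early and early-response genes 23 were higher and 2 lower, with a median of 0.51, and *Id2* (0.98), *Egr3* (0.81) and *Myc* (0.78) were at the top and *Nr4a2* (-0.94) at the bottom. Of 9 AP-1 relatives 3 were higher and none lower, led by *Maff* (0.64). Of 17 upstream kinases and factors 1 was higher (*Elk1*, 0.26) and 1 lower (*Mrtfb*, -0.61).

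Other lists moved between the bulk libraries as well. Heat shock genes were higher in 11 of 11 (median 0.60, summed 3334 and 5261 CPM). Endothelial markers were lower in 9 of 9 in the middle-aged library, with sums of 705 and 169 CPM, and border macrophage markers lower in 6 of 6, with 254 and 121 CPM. Microglial markers differed little, with sums of 32034 and 30100 CPM, 0 of 10 beyond 0.25 and a median of -0.10. The part of these lists in the members' ratios was not tested. The bulk pair and the cluster 10 pair of day 6 thus had opposite directions by age for all 10 members, in mice without and with transferred T cells, and that difference was not tested.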

How the data were processed

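The members are listed by gene name, and members, lists and alternatives were chosen with earlier results of these data known. Single-cell reads (10x Genomics v3) were counted by the authors against mm10 and GENCODE vM23 in CellRanger v3.1.0. Cells were filtered and clustered in Seurat v4.0.4, and raw UMI counts per gene and cell were deposited with a cluster number. For bulk they trimmed with fastp v0.20.0, aligned with HISAT2 v2.1.0 to GRCm38.p6 and deposited raw counts from featureCounts (Subread v1.5.0-p2, unstranded, Ensembl release 99). No values were normalized before deposit.

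UMIs were summed by deposited cluster and library, with edgeR 4.0.16 (TMM, genes with 10 or more UMIs in 2 or more of 4 libraries) and DESeq2 1.42.0 in R 4.3.3, and other steps used pandas 2.3.3, scipy 1.17.1 and numpy 2.4.6 under Python 3.11.15. In counts simulated from the T cell libraries the test for day recovered 99.0% of 200 genes changed among 11172, with 11 false calls. These figures hold for the planted changes and the simulated spread only. Recovery and false calls at the members' own effect sizes, or with age ratios that differ between the days, were not tested. The simulation is therefore no check on the members' calls. All members are named, and of related lists at most 4 genes with the largest ratios. Likeness used log2(CPM + 10) over genes with a mean of 20 CPM or more. No doublet caller was run, and an alternative excluded cells of mixed lineage, defined by at least 2 UMIs from markers of a foreign lineage or at least 5 from those of neutrophils. Scaling, filter, depth minimum, genes in the total, day term, libraries and, for bulk, the prior were each varied as well. Every fit with a library left out had the compared factor, age or day, as its only term. Member coordinates are from GENCODE vM21. Promoter windows use RefSeq starts, which need not be the ends of these gene spans. The starts used for *Nr4a1*, *Dusp1* and *Atf3* lie inside the GENCODE span. The window of *Jund* lies wholly before its GENCODE span. Its lack of the core therefore does not cover the bases directly before the GENCODE start. Windows at other starts of the members are not described here. The authors' comparisons were not used.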

Additional observations from a re-analysis of the deposited data

Results flagged for a closer look

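Members whose age ratio lay beyond 0.25 on the log2 scale in opposite directions on day 6 and day 10 were listed. These differences between days were not tested, since there was 1 library per age and day. In microglia-like cluster 10 they were *Fosb* (-0.54 on day 6 and 1.77 on day 10), *Fos* (-0.81 and 0.96), *Dusp1* (-0.58 and 0.82), *Jund* (-0.75 and 0.78) and *Atf3* (-0.999 and 0.75). In monocyte/macrophage-like cluster 1 they were *Fos* (-0.74 and 0.52) and *Dusp1* (-0.75 and 0.28). In T cell-like cluster 2 *Atf3* (1.05 and -0.25) and *Egr1* (0.61 and -0.29) went the other way.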

How the results depend on the processing

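Ratios compare single pools of 4 cords, so differences between mice and between preparations cannot be told apart from age or day. Counts of 45 UMIs or fewer, as for *Fosb* and *Nr4a1* in cluster 8 on day 6, limit those values most. No paired analysis was possible because the labels give no replicate numbers, but day was a term of the age fit, and without it members called for age stayed at 0 in each of the 5 clusters. Of 750 fold changes from edgeR under an alternative, 707 kept their side of the threshold. A change of direction was counted only where a fit called the gene, so uncalled changes of sign are among these. All 44 bulk values kept direction and side. Of 72 medians of members 56 moved by less than the members' typical counting interval (the median width on either side). Of 719 single ratios 186 were counted as moved, and 7 beyond the fold changed sign. The causes were not tested.

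Without the 10 cells richest in a gene, the day 6 age median was -0.89 in cluster 10 and 1.13 in cluster 8, where *Nr4a1* became 0.13 and *Fosb* gave no value. As a difference of mean log2 values per cell, it was -0.37 in cluster 10 (*Nr4a1* 0.027), -0.16 in cluster 1 and, on day 10, 0.16 in cluster 1 (*Fosb* in cluster 8, -0.0044). With TMM scaling the age medians were -0.30 in cluster 0 and -0.083 in cluster 1 on day 6 and -0.071 in cluster 2 on day 10. Without cells of mixed lineage *Fosb* in cluster 8 on day 10 was -0.74. Day medians with TMM scaling were -1.27, -0.025 and 1.19 in clusters 10, 8 and 2 of young mice and 0.21 and -0.18 in clusters 10 and 8 of middle-aged mice, and in cluster 8 of young mice *Junb* (0.12), *Jund* (0.069) and *Nr4a1* (0.0063) turned upward. With mitochondrial and ribosomal protein genes left out of the total, they were -1.35 and 1.14 in clusters 10 and 2 of young mice and 0.81 in cluster 2 of middle-aged mice.

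Members called for day ranged over the fits with a library left out from 0 to 5 in cluster 10, 2 to 4 in cluster 8, 5 to 9 in cluster 2, 3 to 8 in cluster 0 and 0 to 5 in cluster 1. Without a filter 1 was called in cluster 10, and 1 for age in cluster 0, as also with RLE size factors. With no minimum count, 7 of 11 shares of all genes beyond the fold moved by over 1.5 times.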
